A study of Mus musculus with 2 samples.

Results

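The microRNAs miR-221 and miR-222 (mmu-miR-221 and mmu-miR-222 in the mouse) were described in mononuclear cells isolated from the lamina propria of the colon, the connective tissue under the gut epithelium. The probes were chosen by name, taking every arm of both miRNAs, which gave 4 of the 1900 mouse miRNA probes on the array (miR-221-3p, miR-222-3p, miR-221-5p and miR-222-5p). The pair was picked with its values on these arrays already known, so all of its values below are a description and none carries a test. The RNA came from male Balb/c mice that were either specific pathogen-free (SPF), which carry a gut microbiota, or germ-free, which carry none. Each group had 1 array, and the number of animals behind an array is not given. The comparison asked how the microbiota relates to miRNA levels in these cells. With bulk RNA, a different share of a cell type in the isolate and a different amount of a miRNA per cell cannot be told apart.

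As background, a microRNA is a short RNA that pairs with messenger RNAs through its seed, bases 2 to 8 from its 5′ end, and lowers their translation and stability. miR-221 and miR-222 are neighbours made from a common primary transcript, and their 3p arms are the abundant guide strands. In human and mouse cells they are known for repressing Kit, the receptor for stem cell factor, and the cell cycle inhibitor Cdkn1b (p27). In mouse intestinal Th17 cells, a class of T helper cells, they are known to restrain the response to interleukin 23. They are also abundant in endothelium and vascular smooth muscle.

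The mature sequences of miR-221-3p, miR-222-3p and miR-221-5p are shown because the seed, in capitals, sets which messenger RNAs an arm can pair with and because shared sequence bears on what a probe can detect. They are RefSeq sequences on GRCm38.p6, written 5′ to 3′, and miR-1928 is another mouse miRNA with a probe here that has the 3p seed.
miR-221-3p: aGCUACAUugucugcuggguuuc
miR-222-3p: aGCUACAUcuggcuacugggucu
miR-221-5p: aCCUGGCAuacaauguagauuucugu
miR-1928: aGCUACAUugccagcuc
The 3p arms were identical over the first 8 bases and at 11 of 23 positions in all. Position by position, miR-1928 matched miR-221-3p at 14 of 17 bases, with the first 10 in common, and miR-222-3p at 8 of 17.

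Both genes lie on the minus strand of chromosome X, where GENCODE M21 places Mir221 at 19146294 to 19146388 and Mir222 at 19146893 to 19146971. The hairpins are 504 bases apart, and Mir222 is transcribed first. The mature miR-221-3p spans chrX:19146307-19146329 and miR-222-3p spans chrX:19146901-19146923. In that annotation neither hairpin lies inside a longer gene, and the nearest gene upstream on the same strand, the non-coding Gm14636, starts its interval 10009 bases beyond Mir222.

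Both guide arms were brighter on the SPF array. miR-221-3p read an intensity of 610.5 on the SPF array and 347.5 on the germ-free array. miR-222-3p read 298.4 on the SPF array and 178.5 on the germ-free array. Blank spots, which carry no material, averaged 158.3 (SD 5.33, 895 spots) on the SPF array and 128.5 (SD 4.53, 896 spots) on the germ-free array, and both guide arms were brighter than the floor set from them on both arrays. The higher level of the 174 spots without a probe (mean + 2 SD, 202.2 on the SPF array and 165.8 on the germ-free array) was also exceeded by both, with miR-222-3p on the germ-free array nearest to it. Both guide arms were brighter than all 32 negative control spots on the SPF array. On the germ-free array miR-221-3p was brighter than all 32, while miR-222-3p was brighter than 26 of the 32 and than 169 of the 174 spots without a probe. The fold of miR-222-3p below is taken over that low germ-free value.

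**Figure D1:**
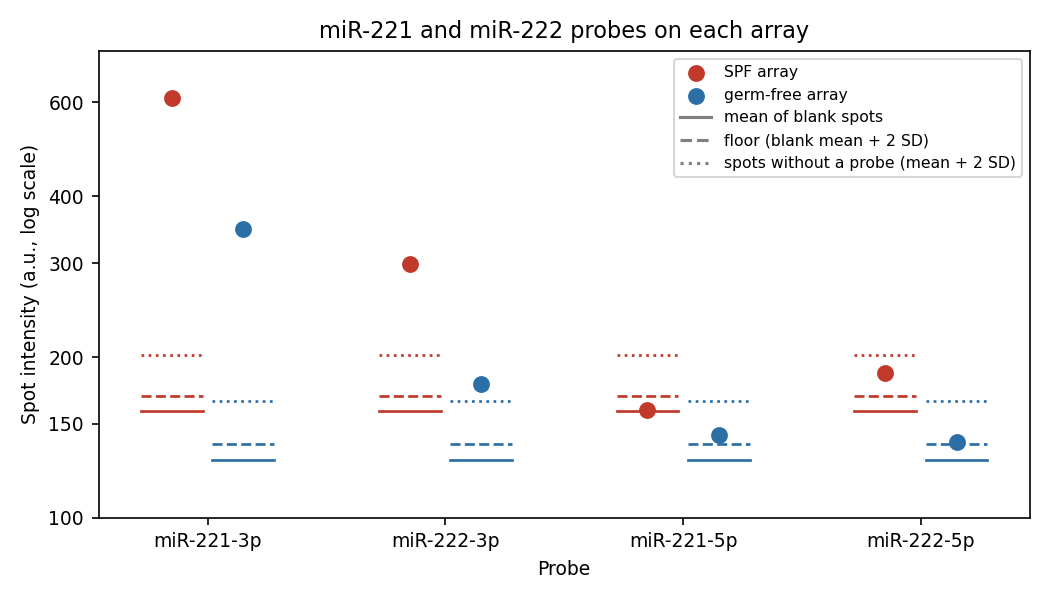
Spot intensity (arbitrary units, log axis) of the 4 probes on the SPF array (red, left) and the germ-free array (blue, right), 1 spot each. Solid, dashed and dotted lines mark each array's blank mean, the blank mean + 2 SD and the mean + 2 SD of spots without a probe; the 3p arms lie above all of these on both arrays, and the 5p arms lie under the dotted line on both.

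After the blank mean was subtracted and the SPF values were multiplied by 0.849, which gives miRNAs detected on both arrays the same median, miR-221-3p had a net intensity of 384.0 on the SPF array and 218.9 on the germ-free array. That is a log2 SPF over germ-free of 0.81, or 1.75-fold, with a technical SD of 0.13. miR-222-3p had a net intensity of 118.9 on the SPF array and 49.97 on the germ-free array, a log2 value of 1.25, or 2.38-fold, with a technical SD of 0.19. The technical SD joins the spread of repeated bright control spots with that of blank spots. It holds nothing of the spread between animals, RNA preparations or arrays.

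The guide arms were not among the brightest miRNAs. Of the 1900 probes, miR-221-3p ranked 309 by net intensity on the SPF array and 417 on the germ-free array. miR-222-3p ranked 602 on the SPF array and 969 on the germ-free array. Ranks compare spots and not molecules, since probes differ in how well they bind.

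The floor for detection was set 2 SD over the blank mean, which is a net intensity of 10.7 on the SPF array and 9.05 on the germ-free array before scaling, and 1471 miRNA probes were above it on both arrays. Of these, 23, or 1.56%, were at least 2-fold higher on the SPF array and 21, or 1.43%, were at least 2-fold lower. Over the whole array, 2.99% lay past 2-fold in either direction. miR-222-3p and miR-222-5p were among the 23 and miR-221-3p, at 1.75-fold, was not. Because the pair was chosen with these values known, its place past or short of 2-fold says nothing more about it. In the order of log2 values from the highest, miR-222-3p stood at 12, miR-222-5p at 13 and miR-221-3p at 33 of the 1471.

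**Figure D2:**
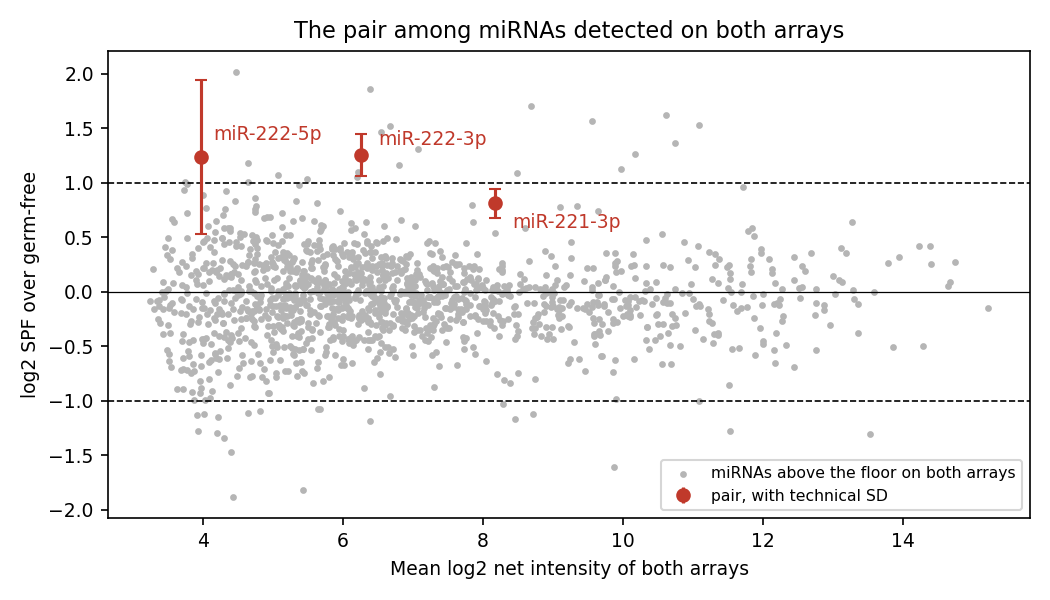
Log2 SPF over germ-free against the mean log2 net intensity of both arrays for the 1471 miRNA probes above the floor on both (gray), with the 3 probes of the pair among them in red and their technical SD as bars. Dashed lines mark 2-fold; miR-222-3p at 1.25 and miR-222-5p at 1.24 lie above the upper line and miR-221-3p at 0.81 below it, and the bar of miR-222-5p is the longest of the 3.

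The guide arms can be placed among miRNAs of like brightness. Since the pair was chosen with these values known, that place is a description and no test. Of the other 127 shared miRNAs within 0.5 of the mean log2 intensity of miR-221-3p, 1 had a higher log2 value, and 90% of them lay between -0.62 and 0.32. Of the other 301 within 0.5 of miR-222-3p, 3 had a higher value, and 90% lay between -0.53 and 0.45. The median log2 value was -0.05 around miR-221-3p and -0.03 around miR-222-3p.

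Control probes with 8 spots on each array show how far a probe of similar brightness differed between the arrays. The probe named S-Probe27, near miR-221-3p in brightness, averaged 542.2 (SD 17.5) on the SPF array and 408.7 (SD 20.3) on the germ-free array, a log2 value of 0.22 after scaling, against 0.81 for miR-221-3p. S-Probe7, dimmer than miR-222-3p on both arrays, averaged 208.5 on the SPF array and 166.2 on the germ-free array, a log2 value of 0.18. S-Probe6, at 224.0 on the SPF array and 194.2 on the germ-free array, was at -0.24. The labels and files do not say what these probes detect. Their log2 values are of means of 8 spots, which vary less than the 1 spot of a guide arm.

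The 5p arms, the passenger strands that are mostly degraded, were close to background. miR-222-5p read an intensity of 186.7 on the SPF array and 138.8 on the germ-free array. Its net intensity was 24.1 on the SPF array after scaling and 10.2 on the germ-free array, a log2 value of 1.24 with a technical SD of 0.70. miR-221-5p read 159.5 on the SPF array and 142.7 on the germ-free array, which put it under the floor on the SPF array, so its log2 value of -0.64 is an upper bound, with a technical SD of 0.87. Of the 174 spots without a probe, 152 were dimmer than miR-222-5p on the SPF array and 67 on the germ-free array. For miR-221-5p, 1 was dimmer on the SPF array and 92 on the germ-free array. No difference between the arrays could therefore be read from the 5p arms at this signal.

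The net intensity of miR-222-3p was 4.93 times that of miR-222-5p on the SPF array and 4.88 times on the germ-free array. For miR-221, the 3p arm was at least 42.4 times the 5p arm on the SPF array, where the 5p arm lay under the floor, and 15.5 times on the germ-free array. These ratios are of spots with different probes and rest on 5p values near the floor.

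Both guide arms were higher on the SPF array. Log2 SPF over germ-free was lower by 0.44 for miR-221-3p than for miR-222-3p, with a technical SD of 0.23 for this difference, and the net intensity of miR-221-3p was 3.23 times that of miR-222-3p on the SPF array and 4.38 times on the germ-free array. Other miRNAs encoded side by side give a scale for this. In 12 further pairs with both members above the floor on both arrays, the members had the same sign in 12, and their log2 values differed by 0.01 to 0.50 with a median of 0.09. The difference within the miR-221 and miR-222 pair exceeded that of 11 of the 12. The 12 were not matched to it in brightness, and the block correction described below was not applied to them. On the germ-free array miR-192-5p and miR-194-5p, for example, had net intensities of 898 and 1074, where miR-222-3p had 49.97. The dim miR-144-3p, at 53.2 on that array, belongs to the 1 pair with a larger difference. For the erythroid pair miR-144-3p at -0.77 and miR-451a at -0.27 the difference was 0.50. The pair miR-23b-3p at 0.51 and miR-27b-3p at 0.53 differed by 0.02.

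The difference changed under other processing. miR-221-3p lies in block 25 of the array, where 49 shared miRNAs had a median log2 value of -0.11, and miR-222-3p in block 15, where 40 had a median of 0.17. With each spot corrected for its block median, miR-221-3p was at 0.93 and miR-222-3p at 1.08, and the difference (miR-221-3p minus miR-222-3p) was -0.15, less than its technical SD. Without background subtraction it was 0.07. Whether position on the array plays a part was not tested, since the blocks hold different miRNAs.

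**Figure D3:**
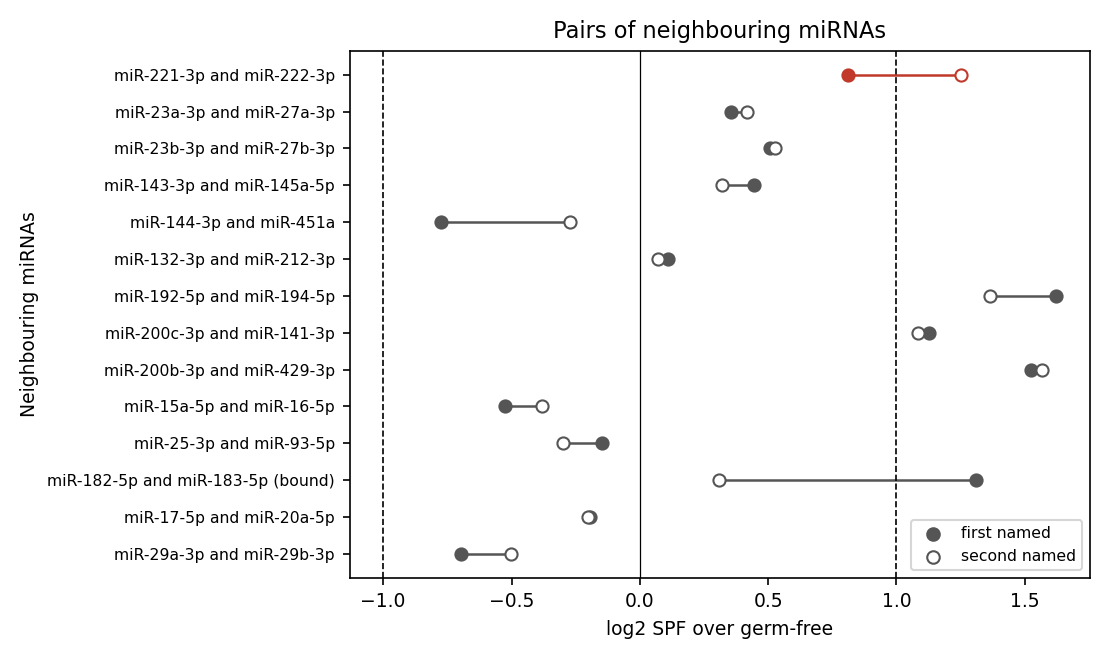
Log2 SPF over germ-free of both members of 14 pairs of neighbouring miRNAs (filled circle, first named; open circle, second named; dashed lines, 2-fold), with the miR-221 and miR-222 pair in red. Its members lie at 0.81 and 1.25, and in miR-182-5p and miR-183-5p 1 value is a bound because that miRNA was above the floor on 1 array only.

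Another mouse miRNA with the 3p seed, miR-1928, was close to background on both arrays. It read an intensity of 174.1 on the SPF array and 143.3 on the germ-free array, with a log2 value of -0.14. Both of its values lay near the floor, and a difference was not detectable at this signal.

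The miRNAs closest in level to each guide arm on both arrays were named by the distance of their log2 net intensities over these 2 arrays. For miR-221-3p they were let-7k (distance 0.19, log2 value 0.54), miR-8112 (distance 0.41, log2 value 0.27) and miR-125b-5p (distance 0.43, log2 value 0.23). For miR-222-3p they were miR-6902-3p (distance 0.13, log2 value 1.09), miR-203-3p (distance 0.17, log2 value 1.05), a miRNA of epithelia, and miR-6973b-3p (distance 0.43, log2 value 1.46). With 2 arrays, closeness in level describes a pair of intensities and no more.

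In the lists below each miRNA stands as the brighter spot of its arms, which compares different probes. Among the spots so chosen, miR-193b-5p, miR-375-5p, miR-143-5p and miR-187-5p stand in place of their 3p arms, and miR-486a-3p in place of its 5p arm. Other miRNAs reported to repress Kit, mainly in human cells, were listed first. Of 5 listed (miR-34a, miR-137, miR-193a, miR-193b and miR-494), 4 were measured, and miR-137 was above the floor in neither of its 2 probes on either array. None of the 4 was past 2-fold, 2 lay above 0 and 2 below, and the median was 0.03, where the median of all 1471 shared miRNAs was -0.06. Of all 1471, 2.99% were past 2-fold in either direction. A short list with none past it, here or below, is therefore no result about that list. miR-494-3p, the brightest, was at 0.31 and miR-34a-5p, a target of p53, was at -0.25.

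Markers of epithelium, which the isolate can carry along, were also higher on the SPF array. Of 10 epithelial miRNAs, 9 were at least 2-fold higher on the SPF array, where 1.56% of all 1471 shared miRNAs were. The list was chosen with earlier results of these data known, so this count is a description and no test. Several of its members are also neighbours, such as miR-200c and miR-141, and are not independent of each other. The median was 1.21, or 0.69 with local background subtraction. The summed net intensity was 14820 on the SPF array and 5727 on the germ-free array. miR-192-5p was at 1.62 and miR-200b-3p at 1.53. Of the 10, 9 had a higher log2 value than miR-221-3p and 5 a higher one than miR-222-3p. The part of epithelial RNA in the values of miR-221-3p and miR-222-3p was not tested.

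Of 5 lymphocyte miRNAs, 1 was past 2-fold in the lower direction and none in the higher. Of all 1471 shared miRNAs, 1.43% were past 2-fold lower and 1.56% higher. The lymphocyte median was -0.59, or 1.22 with local background subtraction. The summed net intensity was 9237 on the SPF array and 21152 on the germ-free array. Most of that sum was miR-150-5p, abundant in mature lymphocytes, which had a net intensity of 7552 on the SPF array and 18700 on the germ-free array and a log2 value of -1.31. The other 4 summed to 1684 on the SPF array and 2453 on the germ-free array, with miR-181a-5p at -0.73, miR-342-3p at -0.59, miR-155-5p at -0.36 and miR-181b-5p at 0.31. Of 3 miRNAs of myeloid cells and all leukocytes, none was past 2-fold, and the median was -0.66, or 0.45 with local background subtraction. miR-223-3p of neutrophils and monocytes was at 0.74 and the pan-leukocyte miR-142a-5p, which gave the median, at -0.66. The third, miR-511-5p at -0.72, lay near the floor, with a net intensity of 10.1 on the SPF array and 16.5 on the germ-free array. The summed net intensity of these 3 was 4731 on the SPF array and 6437 on the germ-free array.

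Endothelium and smooth muscle are cell types outside the leukocytes in which the pair is abundant. Of 6 listed miRNAs of endothelium, fibroblasts and smooth muscle, 5 were measured on their own probes, since miR-199a-3p and miR-199b-3p share 1. None was past 2-fold, the median was 0.01, and the summed net intensity was 1232 on the SPF array and 1313 on the germ-free array. The endothelial miR-126a-3p was at 0.25 and miR-145a-5p of smooth muscle at 0.32. miR-143-5p, in the list as the brighter spot, was at -0.01, and its 3p arm, the usual guide, at 0.45.

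In human blood formation the pair falls as red cells mature. Here the 3 erythroid miRNAs lay below 0, none of them past 2-fold. Their median, -0.48, was the value of miR-486a-3p. Their summed net intensity was 5195 on the SPF array and 6418 on the germ-free array. Of 7 miRNAs that respond to Toll-like receptor ligands or to cytokines, none was past 2-fold and 5 lay above 0. The median, 0.10, was the value of miR-187-5p. The summed net intensity of the 7 was 9003 on the SPF array and 6700 on the germ-free array. Nearly all of that gap lay in miR-21a-5p alone. miR-21a-5p, induced in activated immune cells and in epithelium, was at 0.96 with a net intensity of 4721 on the SPF array and 2426 on the germ-free array. miR-146a-5p, induced through NF-kappa B, was at 0.07, and miR-147-3p, which lay near the floor, was at 0.93. miR-132-3p was at 0.11. The 2 members below 0 were miR-155-5p at -0.36 and miR-146b-5p at -0.02.

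**Figure D4:**
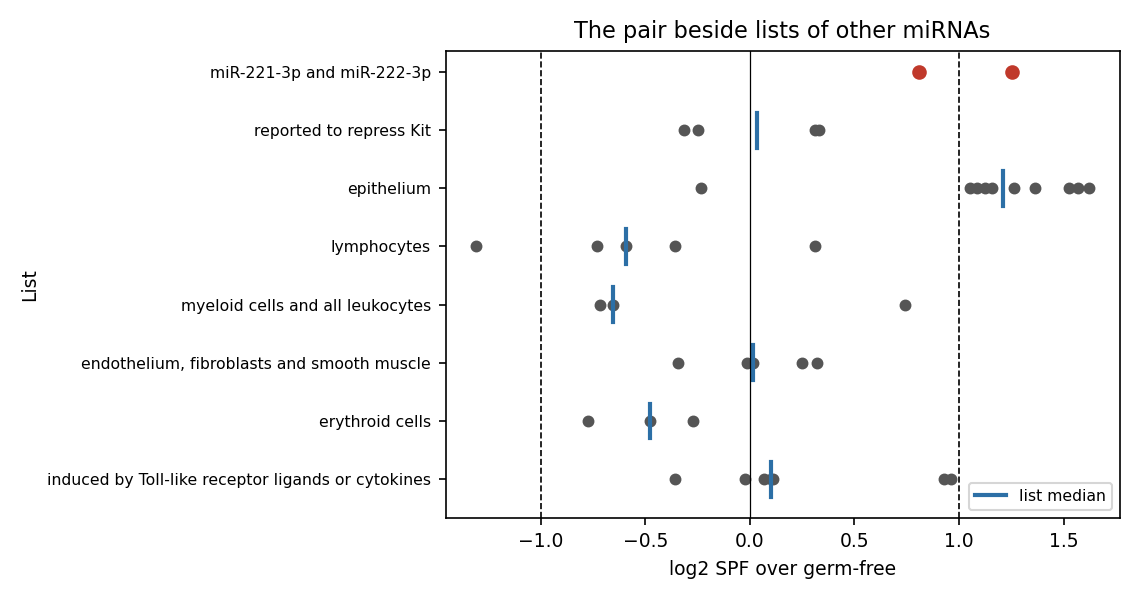
Log2 SPF over germ-free of the guide arms of the pair (red) and of the measured members of 7 lists (gray, the brighter arm of each; blue bar, list median; dashed lines, 2-fold). The pair lies at 0.81 and 1.25, and the epithelial list has a median of 1.21. Of the 10 epithelial members, 9 lie above miR-221-3p and 5 above miR-222-3p. Of the 7 members of the Toll-like receptor or cytokine list, 2 lie above miR-221-3p. Both guide arms lie above the members of the endothelium, fibroblast and smooth muscle list, which holds miR-143-5p and not miR-143-3p at 0.45.

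The values of the pair depended on how background was removed. The local background given for the miR-221-3p spot was 491.8 on the SPF array and 363.0 on the germ-free array. On the germ-free array it exceeded the spot itself, so miR-221-3p has no value when each spot's local background is subtracted. For miR-222-3p the local background was 242.1 on the SPF array and 134.0 on the germ-free array, and subtracting it gave a log2 value of -0.14 in place of 1.25. Under that processing repeated bright control spots spread by 1.29 on the log2 scale, against 0.09 with the blank mean. Without any background subtraction miR-221-3p was at 0.54 and miR-222-3p at 0.47. The 5 neighbouring spots of miR-221-3p reached at most 270.1 on the SPF array and 233.1 on the germ-free array, and those of miR-222-3p at most 202.8 on the SPF array and 181.4 on the germ-free array. Every neighbour was dimmer than its guide arm on both arrays, except miR-32-5p, which at 181.4 was slightly brighter than miR-222-3p on the germ-free array. The local background given for miR-221-3p was higher than all 5 of its neighbours on both arrays, and what it measures was not tested.

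**Figure D5:**
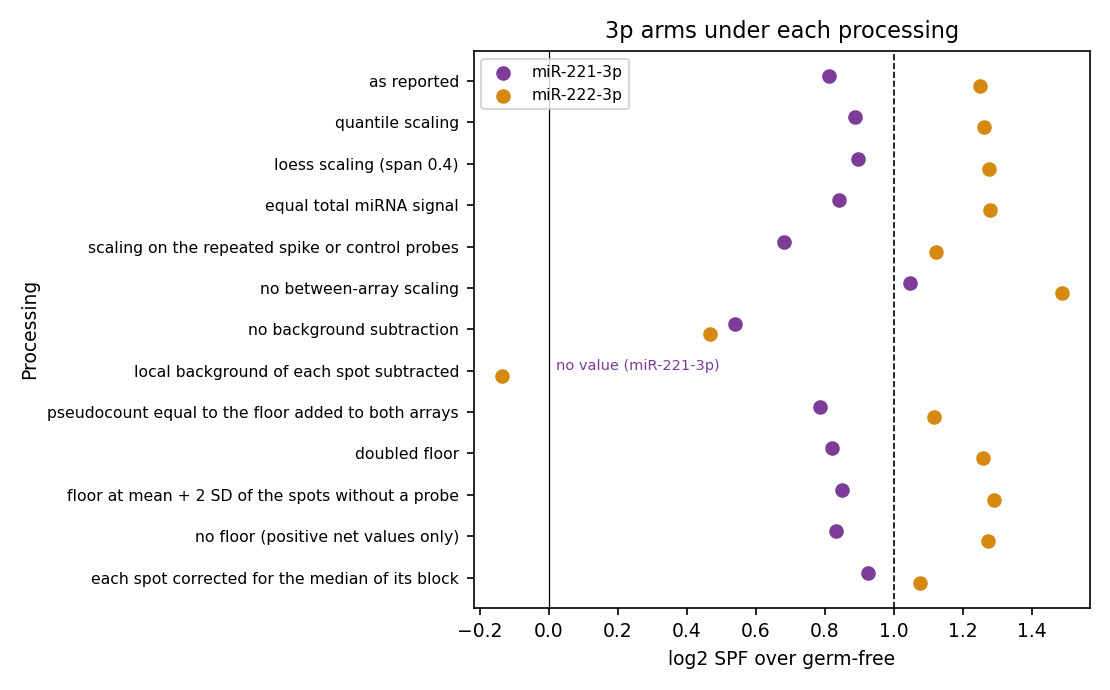
Log2 SPF over germ-free of miR-221-3p (purple) and miR-222-3p (orange) as reported and under 12 other ways of processing the arrays; the dashed line marks 2-fold. Both stay above 0 in 11 of the 12; with local background subtraction miR-222-3p is at -0.14 and miR-221-3p has no value.

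For reference, the pairing site of the 3p seed was looked up in genes reported, mainly in human cells, as targets of the pair, whose messenger RNAs were not analysed here. The motif searched was ATGTAGC, the reverse complement of bases 2 to 8, on the transcript strand of the longest 3′ UTR of each gene in GENCODE M21. It occurred in 1977 of 20979 genes, or 9.42%. The 5 genes below hold it, and they are not every gene looked up, so their number is no result. Up to 22 bases around each site are shown because they are where the seed could pair, with the motif in capitals. Kit has 2 sites.
Kit, first site: tgggagatatATGTAGCaagac
Kit, second site: aaatattgaaATGTAGCaataa
Cdkn1b: aaagcattggATGTAGCattgc
Cdkn1c: cctttcgttcATGTAGCaggaa
Timp3: aaaatcatttATGTAGCtgaga
Bbc3: tttctgcaccATGTAGCatact
Among 3′ UTRs within 20% of the same length, the motif occurred in 15.2% for Kit, 22.3% for the cell cycle inhibitor Cdkn1b, 4.69% for its relative Cdkn1c, 23.6% for the metalloproteinase inhibitor Timp3 and 5.98% for the apoptosis gene Bbc3. The matches describe sequence and say nothing about repression in these cells.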

How the data were processed

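Per the labels, an Exiqon kit was used to label total RNA (Qiagen extraction) with Hy5. For each of 3200 spots the deposited files give a median intensity and a local background intensity, from scans at 3 gains per the file headers. No source used here names the platform, the scanner software or any normalization. The background was the blank mean (1 blank spot marked NG on the SPF array left out), the floor its mean + 2 SD, and the SPF array was scaled by the median of the 1471 shared miRNAs. Values under the floor were replaced by it. Log2 SPF over germ-free has no test, with 1 array per group, and the number of arrays limits the precision. The technical SD comes from 5 bright control probes (8 spots each per array) and blank spots. List members are the brighter arm of each precursor. The members, lists, neighbour pairs and target genes were chosen with earlier results of these data known, and the target genes after the arrays were seen. Named miRNAs were the pair, miR-1928 as a seed mate, list members, neighbour pairs and the 3 nearest miRNAs to each guide arm. The seed mates reported do not cover every chromosome. Alternatives covered scaling, background, floor, pseudocount, block correction, fold threshold and arms. The procedure was tested on simulated data. The simulated arrays had no block effect between them, and local background subtraction was not tried on them, so the simulation does not bear on those alternatives. A list and a target gene fixed for this work are not reported here. Python 3.11.15 and statsmodels 0.14.6 were used.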

Additional observations from a re-analysis of the deposited data

How the results depend on the processing

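Over the 5 other scalings the log2 value was 0.68 to 1.05 for miR-221-3p and 1.12 to 1.49 for miR-222-3p. The highest came without between-array scaling (1.05 and 1.49), where miR-221-3p passed 2-fold. Without background subtraction they were 0.54 and 0.47, their difference (miR-221-3p minus miR-222-3p) was 0.072, and miR-222-5p was at 0.15. With local background subtraction miR-222-3p was at -0.14, and the cause was not tested. With block correction the difference was -0.15. miR-221-5p was at -3.84 without a floor, and miR-222-5p was at least 0.42 with a doubled floor, since only its SPF value was above it. With a floor set by probe-free spots neither 5p arm had a value, nor did miR-221-5p with the doubled floor. The remaining alternatives for the 4 probes moved them by less than their technical SD.

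The 44 miRNAs past 2-fold became 9 without background subtraction, 148 with local background subtraction, 25 with a pseudocount, 29 with a doubled floor, 23 with the floor of probe-free spots, 152 without a floor, 180 at 1.5-fold and 7 at 3-fold. The split was 15 higher and 36 lower with scaling on control probes, and 39 and 9 without scaling. Without scaling the list medians were 0.27 (Kit), 1.45 (epithelium), -0.35 (lymphocytes), -0.42 (myeloid), 0.25 (endothelium, fibroblasts and smooth muscle), -0.24 (erythroid) and 0.34 (Toll-like receptor). With local background subtraction they were 0.69 (epithelium), 1.22 (lymphocytes) and 0.45 (myeloid). With all arms the Kit median was 0.21. No paired analysis was possible because each group has 1 array.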
